A study of Mus musculus with 6 samples.

Results

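The protease inhibitors described here are 36 genes in 6 groups by mechanism, chosen by name: extracellular serpins, intracellular serpins with the collagen chaperone Serpinh1, inhibitors of metalloproteases with alpha-2-macroglobulin, proteins with a whey acidic protein (WAP) domain, Kunitz and Kazal inhibitors, and cystatins. A member was measured where a probe set named that gene alone in the platform annotation, and its brightest probe set stood for it. By that rule 34 of the 36 were measured, by 59 probe sets, among 18193 genes in all. The only probe set listed for Serpina1a, alpha-1-antitrypsin, also names Serpina1d, and Serpina3g was not matched, so neither is reported.

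The tissue was the oviduct of MF1 females, an outbred stock, hybridised to 1-colour arrays, with 3 samples labelled Wt1 +/+ (wild type) and 3 labelled Wt1 ko/+ (heterozygous). The product of Wt1 is a transcription factor with zinc fingers, and the comparison asks what follows the loss of 1 allele. Both genotypes were mated to wild-type males and the oviducts were taken at embryonic day 2.5. The labels give no age, no description of how the knockout allele was made and no word on whether a sample is 1 animal or a pool, so each p-value reflects only how these arrays scatter, and that scatter may be technical.

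Protease inhibitors limit the cleavage of proteins inside and outside cells. Serpins are cleaved by their target within an exposed loop and then trap it, TIMPs block the catalytic zinc of metalloproteases, Kunitz and Kazal domains plug serine proteases, and cystatins fill the active site of cysteine cathepsins. In the oviduct such proteins are secreted into the fluid that surrounds embryos in transit, or made by the stroma and muscle of the wall.

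Levels are log2 normalized intensities. Brightness depends on the probe, so the level of 1 gene is compared between arrays and is not ranked against that of another gene. A common reference for dim signal, given below, serves only to tell where a probe set may be near background. The arrays had medians between 151.6 and 167.8 on the deposited intensity scale. For the Actb control, the signal of the 3′ probe set over that of the 5′ probe set, which grows as RNA degrades, was 1.74, 2.40 and 5.90 for wild type against 2.49, 1.67 and 1.71 for heterozygotes, in the order of replicate number kept throughout. The targeted gene Wt1 stood at 12.17, 12.06 and 11.67 in wild type and 11.12, 11.27 and 11.79 in heterozygotes. The genotypes overlapped for Wt1, since the array labelled as heterozygous replicate 3 exceeded wild-type replicate 3, and the difference of -0.57 did not pass (adjusted p = 0.771, limma).

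No inhibitor passed the threshold. After Benjamini-Hochberg adjustment over all 18193 genes, 0 of 34 members had an adjusted p under 0.05 in limma, where 0.0165% of all genes did, and the smallest value among members was 0.631. At an unadjusted p under 0.05 there were 3 members, 8.82%, against 6.44% of all genes: Serpinb1a and Slpi on the higher side, where 2.67% of all genes lay, and Spink5 on the lower, where 3.77% did. The genotypes did not overlap in 4 members, 11.8%, the same share as the 11.8% of all genes. Of these, Serpinb1a, Timp3 and Slpi were higher (3 members, against 5.0% of all genes) and Timp4 was lower (1 member, against 6.77%). The median difference was 0.02 over the members and -0.03 over all genes, with 18 members higher in mean and 16 lower, where 45.0% of all genes were higher. Each of these counts lies near its background.

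Single arrays moved these small counts. At an unadjusted limma p under 0.05 there were 0 members when heterozygous replicate 1 or 2 was left out (5.62% and 4.63% of all genes), and 7 when heterozygous replicate 3 was (6.48%). Members without overlap on the higher side numbered 7 after removal of wild-type replicate 1 (12.1% of all genes), and 6 after removal of heterozygous replicate 2 or 3 (8.27% and 10.1%). On the lower side they numbered 2 to 5, where 9.32% to 19.9% of all genes lay, both highest after removal of wild-type replicate 1. Without wild-type replicate 3, the array with the Actb ratio of 5.90, there were 3 members at an unadjusted p under 0.05 (5.47% of all genes), 3 without overlap on the higher side (9.60%) and 3 on the lower (10.1%). Groups of fewer arrays overlap less often by construction.

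**Figure D1:**
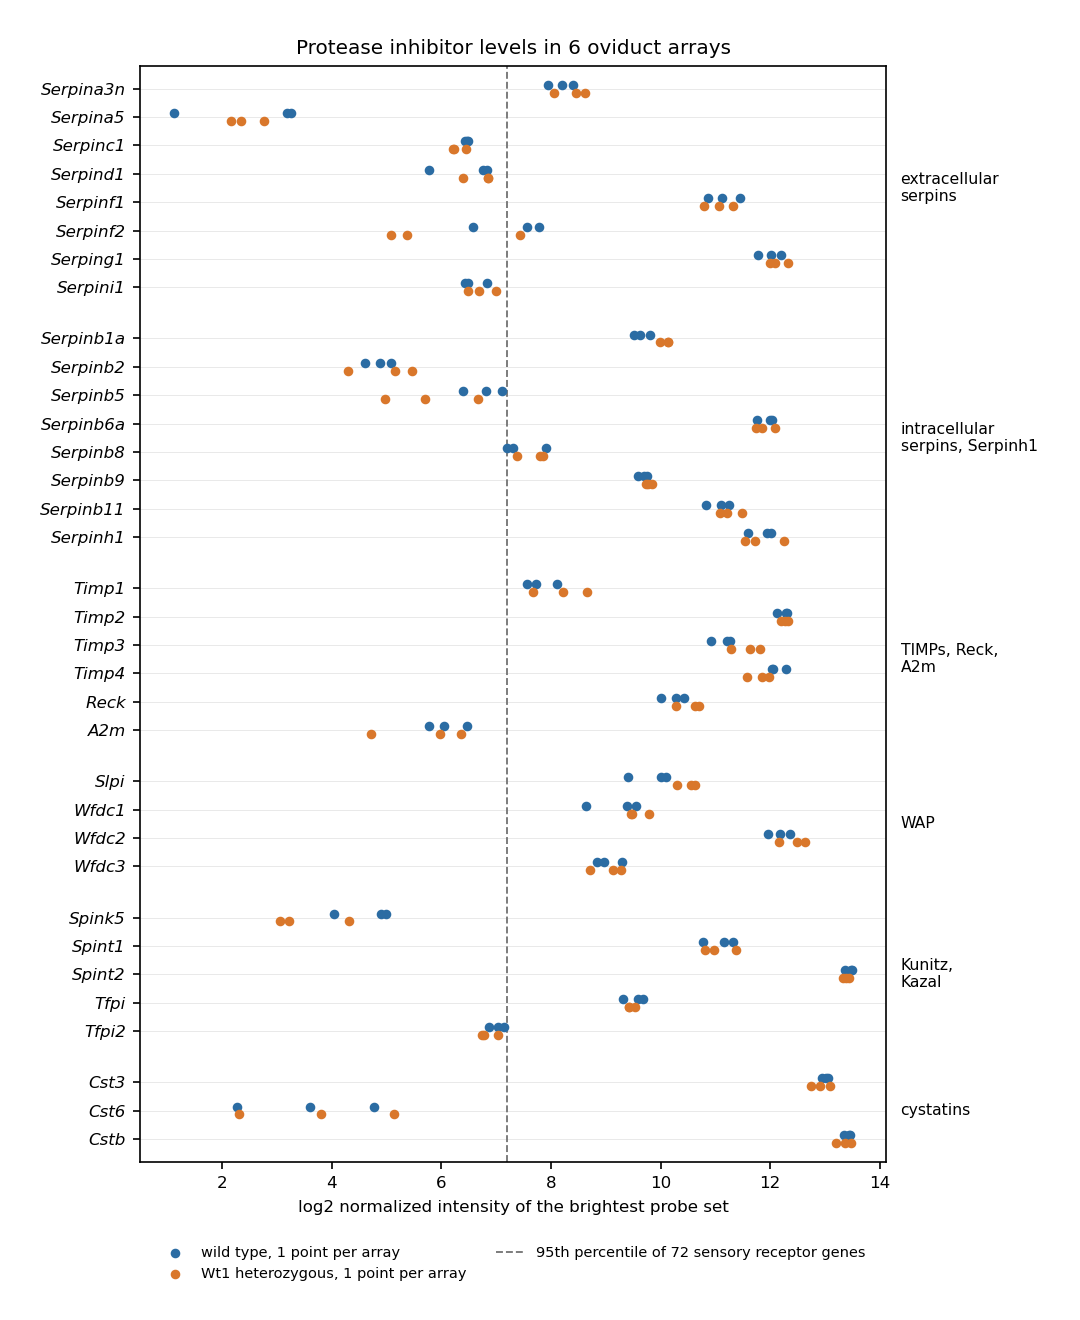
Log2 normalized intensity of the brightest probe set of each of 34 protease inhibitor genes (rows, grouped by mechanism), with 1 point per array for 3 wild-type (blue) and 3 Wt1 heterozygous (orange) oviduct samples. The dashed line at 7.19 is the 95th percentile of 72 sensory receptor genes, and 23 members lie above it in mean.

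The arrays carry no detection calls in the values used. As a reference for dim signal, 72 olfactory, vomeronasal and taste receptor genes had a median level of 5.20 and a 95th percentile of 7.19. Of the inhibitors, 23 had a mean above 7.19 and 11 did not. The 11 were Serpina5, Serpinc1, Serpind1, Serpinf2, Serpini1, Serpinb2, Serpinb5, A2m, Spink5, Tfpi2 and Cst6. Among the brighter 23 the SD within wild type had a median of 0.21 and the 95% interval of the difference a median half-width of 0.44. Among the dimmer 11 these were 0.35 and 1.03, so a difference of the same size is far less certain there. None of the 4 members without overlap was among the dimmer 11.

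Promoters of members without overlap are shown first, because a transcription factor gene was altered. Such members made up 11.8% of those measured, the same as the 11.8% of all genes, so this choice is no result about them. RefSeq windows (build GRCm38.p6) were found for 27 of the 34 members. Serpinb1a, A2m, Cst6, Cstb, Serping1, Spink5 and Wfdc1 had none. Each stretch holds the 250 bases before the transcription start, 5′ to 3′ on the gene's strand, with searched motifs in capitals: chr2:164356508-164356757 on the minus strand for Slpi, chr10:86300162-86300411 on the plus strand for Timp3 and chr6:115252206-115252455 on the minus strand for Timp4.
Slpi: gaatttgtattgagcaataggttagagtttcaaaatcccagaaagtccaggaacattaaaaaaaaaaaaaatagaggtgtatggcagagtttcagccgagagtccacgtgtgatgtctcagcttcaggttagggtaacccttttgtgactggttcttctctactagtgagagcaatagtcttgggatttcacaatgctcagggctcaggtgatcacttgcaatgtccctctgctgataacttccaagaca
Timp3: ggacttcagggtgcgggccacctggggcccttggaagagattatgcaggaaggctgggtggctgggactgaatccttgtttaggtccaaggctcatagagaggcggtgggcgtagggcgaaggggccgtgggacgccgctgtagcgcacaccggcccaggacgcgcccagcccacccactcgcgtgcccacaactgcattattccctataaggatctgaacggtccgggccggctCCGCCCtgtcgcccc
Timp4: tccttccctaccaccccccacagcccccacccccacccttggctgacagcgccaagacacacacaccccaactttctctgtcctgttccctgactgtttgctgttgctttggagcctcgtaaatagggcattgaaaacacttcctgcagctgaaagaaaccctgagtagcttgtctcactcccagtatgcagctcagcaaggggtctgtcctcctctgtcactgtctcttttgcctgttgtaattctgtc

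The windows differed in composition, with 42% G and C for Slpi, 65.6% for Timp3 and 53.6% for Timp4. The motifs were searched on both strands: GCGNGGGCG, a form bound by WT1 and EGR proteins, GCGTGGGAG, another WT1-type element, the GC box GGGCGG, the AP-1 element TGANTCA and the TATA element TATAAA. A GCGNGGGCG match can share bases with a GGGCGG match. Among the 3 printed windows the only match was a GC box on the opposite strand of Timp3, 15 to 10 bases before the start. GCGNGGGCG was present in 3 of the 27 members (11.1%) and in 5.33% of 27025 genes with a window. GCGTGGGAG was in 0 of 27 members and in 0.463% of all genes. The GC box was in 13 members (48.1%, against 35.4% of all genes), TGANTCA in 5 (18.5%, against 7.82%) and TATAAA in 2 (7.41%, against 14.3%). The 3 GCGNGGGCG matches are printed in capitals with 11 bases on each side, at chr2:164562597-164562627 (plus strand, match on the opposite strand) for Wfdc2, chr2:119237291-119237321 (plus strand) for Spint1 and chr6:3968463-3968493 (minus strand) for Tfpi2.
Wfdc2: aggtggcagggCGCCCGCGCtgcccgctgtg
Spint1: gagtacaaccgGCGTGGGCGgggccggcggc
Tfpi2: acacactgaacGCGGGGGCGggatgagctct

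The members that hold this motif all overlapped between genotypes. The difference between heterozygous and wild-type means was 0.27 for Wfdc2, -0.03 for Spint1 and -0.16 for Tfpi2. Control of these genes by WT1 was not tested. A match in these letters is a description of the window and shows no binding.

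Among the WAP domain members all 4 means were higher in heterozygotes, with a median difference of 0.33, where 45.0% of all genes were higher. WAP genes outside the members went both ways. Among the bright ones, picked after their values were seen, Wfdc15b differed by -0.28 and Wfdc18 by 0.11. Slpi, secretory leukocyte protease inhibitor, guards mucosal surfaces against neutrophil elastase and cathepsin G. It stood at 9.41, 10.01 and 10.10 in wild type and at 10.62, 10.56 and 10.31 in heterozygotes. Each heterozygous array lay above every wild-type array, and wild-type replicate 1 was the lowest. On the deposited scale the Slpi intensities were 685, 1037 and 1082 against 1594, 1500 and 1257. The means were 9.84 ± 0.38 (SD, n = 3) and 10.50 ± 0.17 (SD, n = 3), 1.58-fold higher. The log2 difference of 0.66 had a standard error of 0.22 and a 95% interval from 0.11 to 1.20. It did not pass over all genes (unadjusted limma p = 0.0254, adjusted p = 0.696), and the exact two-sided permutation p was 0.1, the smallest that 3 arrays against 3 can give.

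Wfdc2, also called HE4, is a secreted product of reproductive tract epithelium. It stood at 11.95, 12.36 and 12.18 in wild type and at 12.50, 12.64 and 12.17 in heterozygotes. Heterozygous replicate 3 fell within the wild-type range, and the difference of 0.27 had an interval from -0.18 to 0.72 (adjusted p = 0.884, limma). Wfdc1, a WAP protein of stroma and smooth muscle, differed by 0.39 with overlap, its lowest value of 8.63 being that of wild-type replicate 3. Wfdc3 differed by 0.01.

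Inside cells, clade B serpins protect the cytosol from proteases that leak from granules and lysosomes. Serpinb1a, an inhibitor of neutrophil elastase, cathepsin G and proteinase-3, stood at 9.62, 9.81 and 9.52 in wild type and at 10.14, 10.13 and 9.998 in heterozygotes. The 3 heterozygous values lay close together and above all wild-type values. The difference was 0.44 (standard error 0.13), 1.36-fold, with an interval from 0.12 to 0.76. Its limma p was the smallest among the members (unadjusted p = 0.0150, adjusted p = 0.631, exact permutation p = 0.1). A dimmer probe set of Serpinb1a gave 0.57 with overlap. The gene belongs to a family of close paralogs, and whether its probes tell them apart was not tested.

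Other clade B serpins were close between genotypes. Serpinb6a, which inhibits cathepsin G and trypsin-like proteases, stood at 11.77, 12.03 and 12.01 in wild type and 12.09, 11.85 and 11.75 in heterozygotes. Serpinb9, the granzyme B inhibitor of lymphocytes and immune-privileged cells, differed by 0.10, with an interval from -0.17 to 0.38. Serpinb8, an inhibitor of furin, and Serpinb11 each differed by 0.20. Serpinh1, the chaperone of procollagen in the endoplasmic reticulum and not a protease inhibitor, stood at 11.59, 12.02 and 11.94 in wild type and 11.72, 12.25 and 11.54 in heterozygotes. Heterozygous replicates 2 and 3 held the highest and the lowest Serpinh1 value, and the means differed by -0.01.

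Serpinb5, maspin, is an epithelial serpin that does not inhibit proteases. It was dim, and all 4 of its probe sets were lower in mean in heterozygotes, by 0.35 to 1.07 on the log2 scale. Its brightest probe set had a difference of -0.998 with overlap (adjusted p = 0.809, limma), and only the dimmest separated the genotypes, at -0.92. Serpinb2, plasminogen activator inhibitor 2, was dim too and differed by 0.12.

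**Figure D2:**
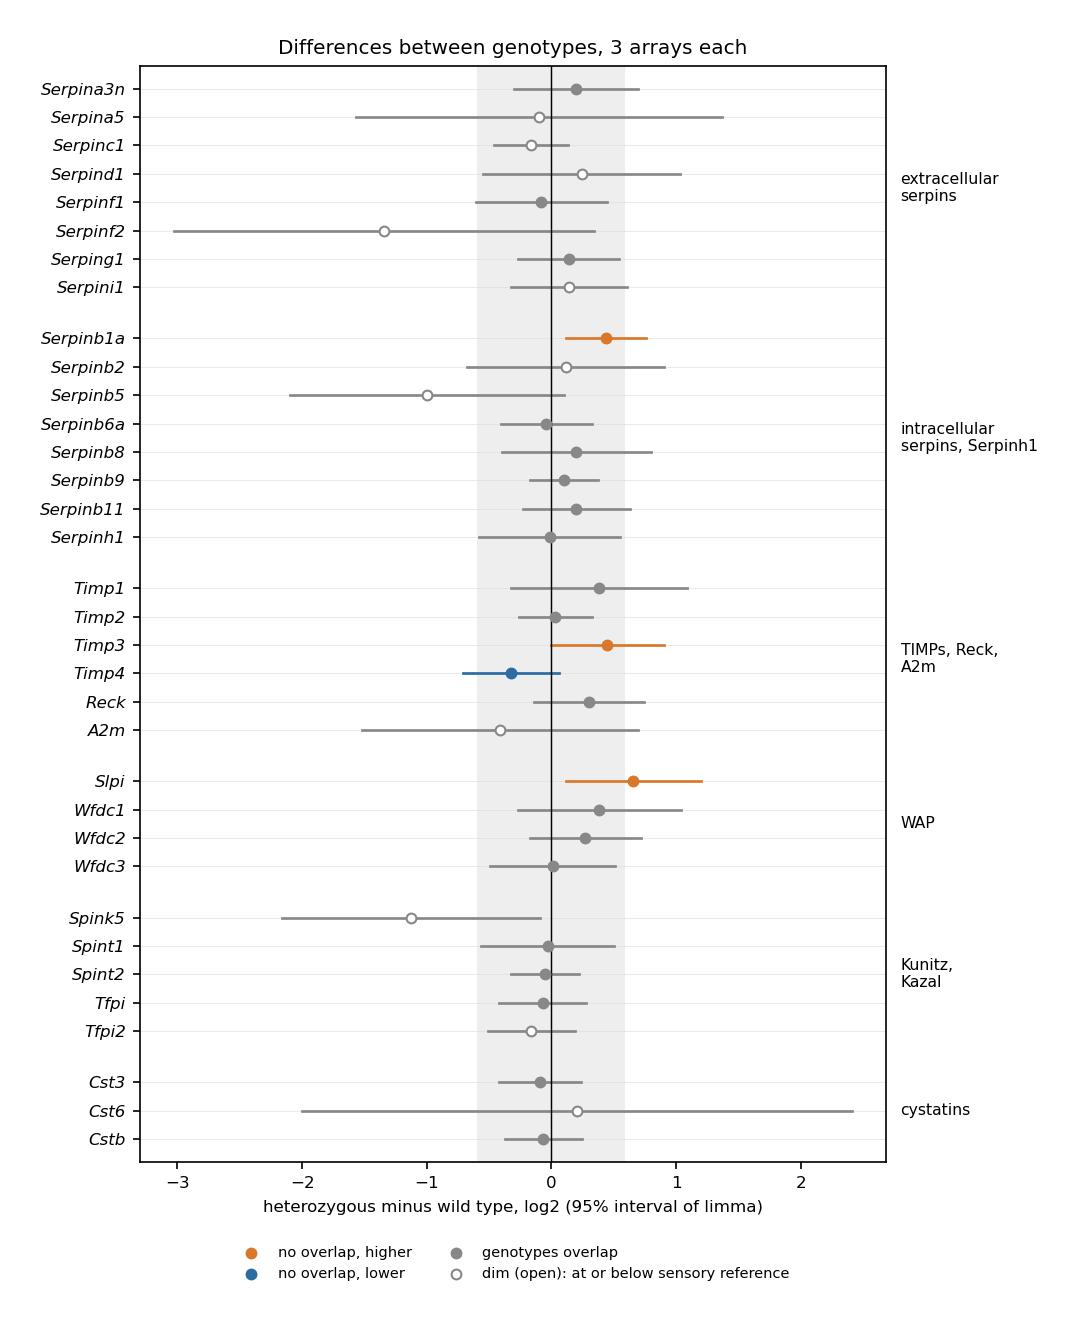
Difference in log2 normalized intensity, heterozygous minus wild type, for 34 inhibitors, with 95% intervals from limma over 3 arrays per genotype. Orange and blue mark the members whose genotypes did not overlap (Serpinb1a, Timp3 and Slpi higher, Timp4 lower), open points mark the 11 dim members, and the grey band spans 1.5-fold in either direction.

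TIMPs bind the active site of matrix metalloproteases. Timp3, which is held in the matrix and also inhibits ADAM17 and ADAMTS enzymes, stood at 11.21, 10.91 and 11.26 in wild type and at 11.63, 11.81 and 11.29 in heterozygotes. The genotypes did not overlap, but heterozygous replicate 3 exceeded wild-type replicate 3 only narrowly. The difference was 0.45, 1.37-fold, with an interval from -0.0045 to 0.90 (unadjusted limma p = 0.0517, adjusted p = 0.781, exact permutation p = 0.1). Timp4, known from heart and smooth muscle, was the only member lower in every heterozygous array, at 12.03, 12.06 and 12.29 in wild type and 11.97, 11.57 and 11.85 in heterozygotes. Its difference of -0.33 had an interval from -0.71 to 0.06 (adjusted p = 0.823, limma). The other Timp4 probe set gave -0.03 with overlap, and the mean of both -0.18. With the log2 Actb ratio as a covariate the Timp4 difference was -0.21, and it was also -0.21 without heterozygous replicate 2, the lowest array.

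Timp2, which also helps MMP14 to activate MMP2, stood at 12.12, 12.29 and 12.31 in wild type and 12.28, 12.33 and 12.20 in heterozygotes. That is a difference of 0.03 with an interval from -0.26 to 0.32. Timp1, a soluble inhibitor induced by cytokines, differed by 0.38 with overlap, and heterozygous replicate 2 held its highest value, 8.66. Reck, a membrane-anchored inhibitor of metalloproteases, differed by 0.31 with overlap. A2m, alpha-2-macroglobulin, which entraps proteases of every class, was dim and differed by -0.41.

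Several of these genes had more than 1 probe set, and the probe sets did not give the same size of difference. Of all 59 probe sets of members 0 had an adjusted p under 0.05 in limma, against 0.00666% of all 45037 probe sets, and 4 had an unadjusted p under 0.05, against 5.18%. Of 14 members with several, 10 had the same sign at every probe set and 4 did not: Serpinf1, Spint2, Tfpi and Cstb. All 4 probe sets of Timp3 were higher in heterozygotes, by 0.45 at the brightest and 0.61, 0.75 and 0.84 at the others, where the genotypes overlapped. The 6 probe sets of Timp2 ranged from 0.03 at the brightest to 1.44 at the dimmest. For Serpinf1 the brightest gave -0.08 and the other 1.23.

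Timp2, Timp3 and Serpinf1 are set out by probe set because of this spread, seen in the data. Of their 9 dimmer probe sets, 7 had their lowest value in wild-type replicate 3, the array with the Actb ratio of 5.90. The dimmer Serpinf1 probe set read 9.85, 8.42 and 6.49 in wild type and 8.84, 9.90 and 9.71 in heterozygotes, whereas the brightest read 10.86, 11.12 and 11.45 against 11.08, 11.32 and 10.79. Thus wild-type replicate 3 held the lowest value at the dimmer probe set of Serpinf1 and the highest at the brighter one. Over all 25 dimmer probe sets of members, 11 were lowest in wild-type replicate 3. For all genes this was counted at the brightest probe set only, where 17.2% were lowest in that array. Dimmer probe sets of all genes were not counted, so the 11 have no like background and show no trait of the members. With the log2 Actb ratio as a covariate, Timp3 differed by 0.50 and Slpi by 0.85. Neither passed (adjusted p = 0.838 and 0.639, limma), and over all alternatives the adjusted p ranged from 0.499 to 0.999 for Timp3 and from 0.379 to 0.999 for Slpi.

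**Figure D3:**
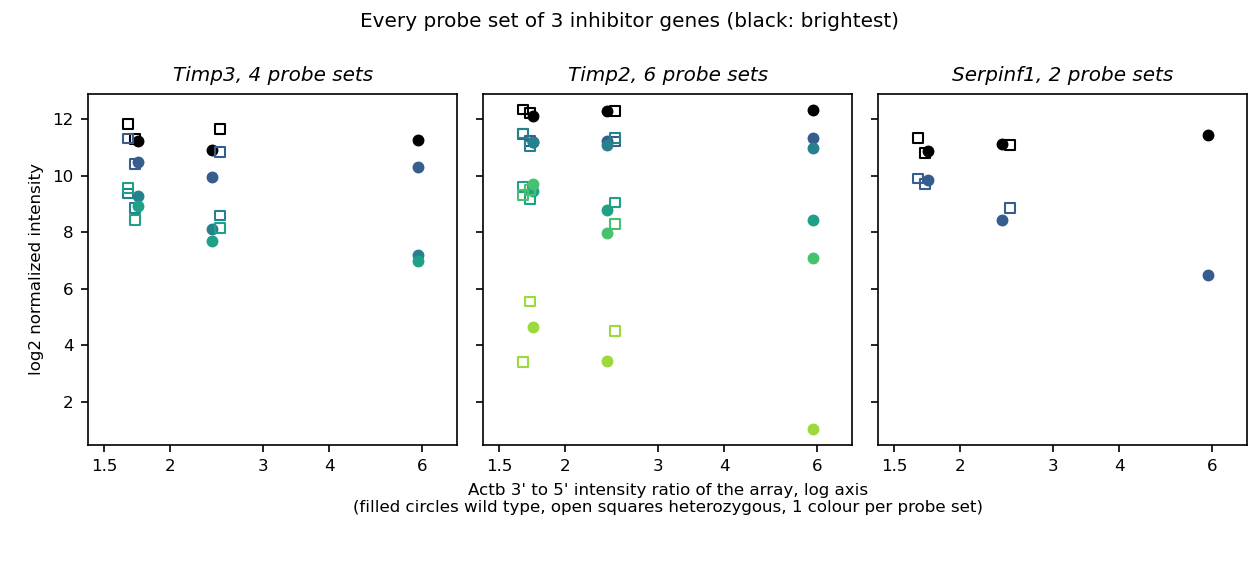
Log2 normalized intensity of every probe set of Timp3, Timp2 and Serpinf1 against the Actb signal ratio, 3′ over 5′, in the same array (log axis), 1 colour per probe set with the brightest in black, filled circles for wild type and open squares for heterozygous arrays. At the dimmer Serpinf1 probe set the array with the ratio of 5.90 read 6.49, and at the brightest it read 11.45.

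Extracellular serpins act on proteases of complement, clotting and fibrinolysis. Serping1, the inhibitor of complement C1 proteases and plasma kallikrein, stood at 11.79, 12.01 and 12.21 in wild type and 12.09, 12.33 and 11.9995 in heterozygotes, a difference of 0.14 with an interval from -0.27 to 0.55. Serpinf1, pigment epithelium-derived factor, is an antiangiogenic serpin without inhibitory activity, and its values are given above. Serpina3n, an acute phase inhibitor, differed by 0.20 with overlap. Of the measured members, those best known as plasma proteins of the liver were dim: antithrombin (Serpinc1), heparin cofactor II (Serpind1) and alpha-2-antiplasmin (Serpinf2). This does not extend to relatives of Serpina1a outside the members, picked after their values were seen. Serpina1c had means of 12.75 in wild type and 12.96 in heterozygotes, and Serpina1b 10.20 and 10.40, both with overlap.

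Serpinf2, singled out after its values were seen, had the largest difference of any member, -1.34, but from 6.58, 7.56 and 7.78 in wild type to 5.09, 5.37 and 7.44 in heterozygotes. Heterozygous replicate 3 lay within the wild-type range, and the interval ran from -3.03 to 0.35 (adjusted p = 0.837, limma). Serpinc1, Serpind1, the tissue plasminogen activator inhibitor Serpini1 (neuroserpin) and the protein C inhibitor Serpina5 differed by -0.17 to 0.24.

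Kunitz and Kazal inhibitors were lower in mean in all 5 cases, by a median of -0.07. Spint1 and Spint2 are membrane proteins that restrain matriptase and prostasin on epithelial cells. Spint2 varied little, at 13.36, 13.47 and 13.49 in wild type and 13.45, 13.39 and 13.33 in heterozygotes, so that its difference of -0.05 had an interval from -0.32 to 0.22. Spint1 read 10.78, 11.15 and 11.33 against 11.38, 10.97 and 10.82, a difference of -0.03. Tfpi, which blocks factor Xa and the complex of tissue factor with factor VIIa, differed by -0.07.

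Spink5, a Kazal inhibitor of epidermal kallikreins, had an unadjusted p under 0.05 but lay in the dim range. It read 4.04, 4.99 and 4.90 in wild type and 3.04, 3.21 and 4.31 in heterozygotes, and heterozygous replicate 3 exceeded wild-type replicate 1. The Spink5 difference was -1.12 (adjusted p = 0.744, limma), and -0.57 with log2 of the intensity plus 16, which shrinks differences at low intensity.

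Both bright cystatins were close between the genotypes. Cst3, cystatin C, a secreted inhibitor of cathepsins, read 12.94, 13.06 and 13.02 in wild type and 12.92, 13.09 and 12.75 in heterozygotes, a difference of -0.09 with an interval from -0.42 to 0.24. Cstb, which protects the cytosol from lysosomal cathepsins, read 13.46, 13.36 and 13.43 against 13.37, 13.20 and 13.49, a difference of -0.07 with an interval from -0.37 to 0.24. Cst6, cystatin M/E, was dim, with values from 2.27 to 5.13.

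For 13 of the 34 members the whole 95% interval lay within 1.5-fold of equality (38.2%, against 40.3% of all genes). These included 4 of 5 Kunitz and Kazal inhibitors and 2 of 3 cystatins, but 1 of 6 in the TIMP group and 1 of 4 WAP proteins. For the other 21 members the interval reached beyond 1.5-fold in at least 1 direction, so that 3 arrays per genotype left a difference of that size possible. Of the 7 members on the chromosome that carries Wt1 (Serping1, Slpi, Wfdc2, Wfdc3, Spint1, Tfpi and Cst3), 4 were higher in mean, with a median difference of 0.01, against 0.03 in the 27 others.

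The inhibitors also varied between arrays of a genotype. Among the 23 brighter members, heterozygous replicate 2 held the highest value in 9, where it did so in 12% of all genes. Wild-type replicates 1 and 3 held the lowest in 6 each and heterozygous replicate 1 in 0, where these arrays were lowest in 20.9%, 17.2% and 13.4% of all genes. The shares over all genes include dim genes, and equally bright genes were not counted. These counts therefore have no like background and show no trait of the members. Heterozygous replicate 2 was the highest array for Timp1, Timp2, Timp3, Reck, Serping1, Serpinh1, Wfdc1, Wfdc2 and Cst3.

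Markers of the tissue's other cells moved with genotype in some lists. In bulk tissue, fewer cells of a type and less RNA per cell cannot be told apart. The oviduct label was borne out by its markers: the secretory epithelium list, which holds the oviductal glycoprotein Ovgp1, had 9 of 10 genes above the sensory reference and the ciliated list 10 of 10. Hepatocyte genes (0 of 8) and red cell genes (0 of 3) were not above it, albumin included. A sum is set mainly by the brightest genes of its list. Of 12 lists, 5 had summed intensities that were higher in every heterozygous array and 7 overlapped. The smooth muscle sum ranged from 48336 to 50297 in wild type and from 54216 to 72105 in heterozygotes (12 genes, 11 higher in mean). Without overlap, 8 of its genes were higher and 1, Synm, was lower, at -0.78. The stromal fibroblast sum ranged from 47133 to 51236 and from 52025 to 61911 (10 genes, 9 higher). Endothelial sums were 4538 to 4927 and 5526 to 6225 (10 genes, 9 higher), and uterine gland sums 1352 to 1801 and 2432 to 2735 (6 genes, 4 higher). The uterine gland sum separated through Cxcl15, a chemokine of uterine glands that read 7.45, 8.08 and 7.63 in wild type and 10.16, 10.13 and 10.37 in heterozygotes (adjusted p = 0.0620, limma). Without Cxcl15 these sums overlapped, at 1177 to 1530 and 1311 to 1440, and the gland transcription factor Foxa2 differed by -0.06. The leukocyte sum was 9542 to 11875 and 13745 to 19290 (11 genes, 9 higher), and without Jchain, S100a8 and S100a9 it overlapped, at 6067 to 7801 and 6612 to 8654. The adipocyte sum overlapped through Lpl, and without it the sums were 418 to 509 and 804 to 1525, with Adipoq, Fabp4 and Car3 higher in each heterozygous array (by 2.08, 1.48 and 2.22). The genes left out of these sums were chosen after their values were seen. The secretory sum overlapped, at 65743 to 69744 and 66920 to 69576. The ciliated sum overlapped too, at 23112 to 24698 and 19096 to 23618, but 8 of its 10 genes were lower in mean, with a median difference of -0.13. Its genes without overlap, Foxj1 and Tekt2, were lower in each heterozygous array, at -0.31 and -0.34.

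These sums bear on the members named above only as values side by side. Timp3, made by stroma and muscle, and the smooth muscle, stromal and endothelial sums were all highest in heterozygous replicate 2. The leukocyte and adipocyte sums were highest in that array too, as were 9 of the 23 brighter members, Timp3 included. Whether these peaks have a common source was not tested. Slpi and Serpinb1a, both of which neutrophils and epithelia can make, were highest in heterozygous replicate 1, but only narrowly above heterozygous replicate 2. In these 2 arrays Slpi read 10.62 and 10.56, and Serpinb1a 10.14 and 10.13, so nothing is drawn from their order. The neutrophil genes S100a8 and S100a9 of the leukocyte list, picked after their values were seen, were higher in each heterozygous array. S100a8 read 5.13, 5.22 and 7.84 in wild type and 9.14, 11.33 and 10.45 in heterozygotes (adjusted p = 0.503, limma). The bright leukocyte markers Ptprc, Cd68, Csf1r and Lyz2 overlapped, with differences of 0.25, 0.13, 0.07 and 0.16. Jchain, also bright, was higher in each heterozygous array, with a difference of 0.86. Among defining leukocyte markers, Cd3e, Cd79a, Itgam and Klrk1 were not above the sensory reference. Of these, Cd3e, Cd79a and Itgam overlapped, with differences of -0.53, -0.09 and 1.36. Klrk1 was higher in each heterozygous array, by 0.60. The part of these cells in the inhibitor values was not tested.

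**Figure D4:**
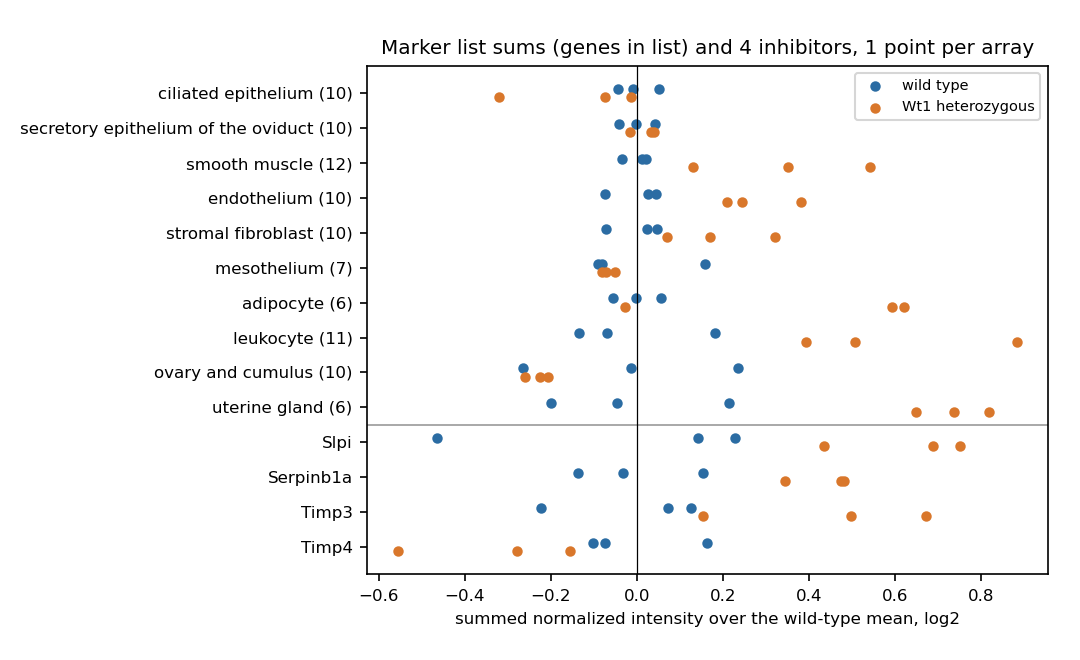
Summed normalized intensity of 10 marker lists with at least 3 genes above the dim reference, and the intensity of Slpi, Serpinb1a, Timp3 and Timp4, each as log2 of the array's value over the wild-type mean, with 1 point per array. Smooth muscle, endothelium, stromal fibroblast, leukocyte and uterine gland sums lie higher in all 3 heterozygous arrays, and the secretory epithelium sums overlap.

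Further inhibitors outside the 36 gave no call. Of 82 listed, 57 were measured and 0 passed, with 9 at an unadjusted limma p under 0.05 (15.8%, against 6.44% of all genes), 6 higher and 3 lower, and a median of 0.05. Of these 57, 38 were not above the sensory reference. Among those without overlap that lay above the median of all probe sets in at least 1 genotype, the smallest p belonged to Serpinb12, at 0.76, Bst2, an interferon-induced membrane protein listed for its effect on metalloproteases, at 0.61, and Wfikkn2, a multidomain protein that binds growth factors, at -0.65. The second probe set of Serpinb12, which was dim, gave -0.41. Spink8, a Kazal protein, and Wfdc18, a WAP protein, also met these criteria with a larger p, at 0.52 and 0.11.

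The proteases that these inhibitors target gave no call either. Among 23 measured metalloproteases 0 passed in limma, while 7 had an unadjusted p under 0.05 (30.4%, against 6.44% of all genes), 5 higher and 2 lower. Their median was 0.17. This list was drawn up with earlier results of these data known, which included a metalloprotease list that stood higher, so the share is no separate support. Mmp7, an epithelial matrilysin, differed by 0.62 (8.57, 8.81 and 8.51 against 9.43, 8.99 and 9.33) and Mmp8, the collagenase of neutrophils, also by 0.62. Mmp23 and the stromelysin Mmp10 differed by -0.45 each.

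Of 25 trypsin-like and membrane serine proteases, 4 had an unadjusted p under 0.05 in limma (16%, against 6.44% of all genes), 3 higher and 1 lower, and the median was 0.12. Tmprss13, a membrane serine protease, differed by -0.78 and the kallikrein Klk8 by 0.69, each without overlap. The elastase and cathepsin G genes, targets of Slpi and Serpinb1a looked up after those values were seen, were not above the sensory reference in their mean over all arrays. Ctsg read 1.93, 2.76 and 3.54 in wild type and 4.87, 6.62 and 7.48 in heterozygotes. Elane read 4.96, 5.14 and 6.79 against 5.96, 8.08 and 7.37, a difference of 1.51 with overlap. Prtn3, the gene of the Serpinb1a target proteinase-3, was just above the reference at a mean of 7.22 and overlapped, with a difference of 0.37. In the plasminogen and thrombin list of 15, 2 genes did not overlap between genotypes (13.3%, near the 11.8% of all genes). These were the urokinase receptor Plaur, which differed by 0.44, and the tissue plasminogen activator Plat, by -0.17. The 15 cysteine proteases, targets of the cystatins, had a median of 0.04. None was without overlap (against 11.8% of all genes) and 0 had an unadjusted limma p under 0.05 (against 6.44%). With 15 genes such shares amount to few genes, so these counts show little about the list.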

How the data were processed

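The values are linear intensities deposited by the authors for 45101 probe sets on each array. The program and its settings are not given in the sources that were used. The mean after trimming 2% at each end was 500.002 in all 6 arrays, so the values had been scaled. Samples were grouped by their titles. After removal of 64 control probe sets, intensities under 1 were set to 1, log2 transformed and quantile normalized, since array medians differed by 0.15. The annotation gave a single symbol for 34945 of the 45037 probe sets, several for 932 and no entry for 9160.

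Genotypes were compared in R 4.3.3 by limma 3.58.1 (lmFit, then eBayes, two-sided) over 18193 genes, each at its probe set of highest mean, and over all probe sets, and adjusted p-values (Benjamini-Hochberg) under 0.05 counted as calls. An exact permutation test was added for single members. Errors are SDs over arrays or standard errors of limma. The number of arrays limits the precision.

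Full values were given for Wt1, the 2 members of highest mean per group and members with an unadjusted limma p under 0.05 or no overlap. From the lists of other inhibitors and proteases, up to 2 genes per direction without overlap were named, smallest p first. These were given by their difference, and Mmp7 in every array too. Other genes shown from those lists, and single genes from the marker lists, were chosen after their values were seen. Members and lists were chosen with earlier results of these data known. The script was tested on simulated data. The alternatives were other scaling, filters, variance models, probe set rules, a replicate block, the Actb ratio as a covariate and leaving out each array.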

Additional observations from a re-analysis of the deposited data

How the results depend on the processing

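No member passed the threshold in any of 14 alternatives (lowest adjusted p = 0.351, limma), and 19 of the 34 kept their sign throughout, Slpi, Serpinb1a, Timp3 and Timp4 among them. Among all genes 3 passed; there were 6 when dim probe sets were filtered out, 1 under the trended robust model, 0 without cross-hybridizing probe sets, 0 with the Actb ratio as a covariate and 0 with any array left out. The replicate number did not pair the arrays: deviations of same-numbered arrays correlated at -0.10, -0.03 and -0.08, and 0 of 6 arrays correlated best with their own number. With a replicate block 0 genes passed. At an unadjusted limma p under 0.05 members numbered 6 under the trended robust model (6.89% of all genes) and 5 with log2 of the intensity plus 16 (6.84%). They numbered 3 in the main fit (6.44%), 4 with the replicate block (5.36%), and 2 with the deposited scaling (6.30%) or the Actb covariate (6.12%). With an array left out they numbered 0 to 7 (4.63% to 10.5% of all genes). Members without overlap then numbered 3 to 7 on the higher side (8.27% to 12.1%) and 2 to 5 on the lower (9.32% to 19.9%). The members' median was 0.10 with the filter, which tested 23 of them, 0.13 with the mean of all probe sets and -0.04 to 0.07 with an array left out.

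Signs turned for members near 0 or dim. With the mean of all probe sets Serpinf1 stood at 0.58 and Tfpi at 0.11, and without cross-hybridizing probe sets Spint2 at 0.014. With the Actb covariate Serpinf1 stood at 0.088, Serpinb6a at 0.049, Serpinb8 at -0.032, Serpinh1 at 0.037 and Spint1 at 0.17. With an array left out the ranges were -0.80 to 0.27 for Serpina5, -0.10 to 0.43 for Serpind1, -0.22 to 0.073 for Serpinf1, -0.13 to 0.45 for Serpinb2, -0.14 to 0.035 for Serpinb6a, -0.22 to 0.13 for Serpinh1, -0.028 to 0.068 for Timp2, -0.75 to 0.075 for A2m, -0.11 to 0.17 for Wfdc3, -0.19 to 0.090 for Spint1, -0.18 to 0.0094 for Tfpi, -0.49 to 0.92 for Cst6 and -0.13 to 0.0093 for Cstb. The causes were not tested. Without detection calls, signal over background limits the 11 dim members.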
